A study of Mus musculus with 36 samples.

Results

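The genes described here are a list of 44 interferon response genes of the mouse, matched by gene symbol. Of the 44, 43 were among the 20325 genes of the files, and 1 (Ifi27) was not among them. All 43 passed the filter on low counts in every fit, so no member was lost to it. By role they comprised 2 secreted chemokines (Cxcl10, Ccl5), 7 regulators of the response (Irf1, Irf7, Irf9, Stat2, Usp18, Isg15, Herc6), 5 sensors of foreign nucleic acid (Ddx58, Ifih1, Dhx58, Eif2ak2, Zbp1), 19 antiviral effectors, 3 genes of antigen processing (Psmb8, Psmb9, Tap1) and 7 other interferon targets.

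Interferons are secreted proteins that warn cells of viral nucleic acid. Type I interferons bind a receptor made of Ifnar1 and Ifnar2, whose kinases activate Stat2 and related factors. These join Irf9, and the complex switches on genes through a promoter sequence called the interferon-stimulated response element (ISRE), whereas interferon gamma acts through the gamma-activated site (GAS). Fibroblasts respond strongly to interferon, and pluripotent stem cells are known for a weak interferon response. Many members (Stat2, Irf9, Irf7, Isg15, Usp18) are both targets and regulators of the pathway.

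The study asked how inhibition of Dot1l, the methyltransferase of histone H3 lysine 79, changes the reprogramming of mouse embryonic fibroblasts (MEFs) towards pluripotency, and whether the adhesion protein CDH1 (E-cadherin) plays a part. Polyadenylated RNA was sequenced in 36 libraries, 2 for each of 18 groups. MEFs (E13.5) carried 2 alleles shared by all their groups, controls included: a homozygous doxycycline-inducible cassette in Col1a1, which joins Oct4 to Klf4 and Sox2 to c-Myc by 2A peptides around an IRES, and a heterozygous reverse tetracycline transactivator in Rosa26. SGC0946 is a chemical inhibitor of Dot1l, and DMSO was its vehicle.

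The timecourse had untreated MEFs, cells after 2 days of doxycycline with SGC0946 or DMSO, and cells after 4 days of doxycycline. At day 4 the inhibitor had been present throughout (the full window), on days 2 to 4 (the mid window), on days 0 to 2 (the early window) or not at all (DMSO). For the sort, cells given doxycycline for 3.5 days were separated into CDH1+ and CDH1- cells, and each fraction was grown to day 5.5 in doxycycline with SGC0946 or DMSO. In the lentivirus experiment MEFs received a Cdh1 virus or an empty virus, and were either left uninduced or given 2 days of doxycycline with SGC0946 or DMSO. V6.5 embryonic stem cells (ESCs) were grown on feeders that were removed 24 h before harvest. MEFs were kept in serum medium, while reprogramming cells and ESCs grew in medium with leukemia inhibitory factor on irradiated feeder MEFs. Doxycycline, medium and feeders therefore cannot be told apart in any comparison of reprogramming cells with MEFs, and feeder RNA is part of the bulk libraries. Since the labels give no culture of origin for either library of a group, p-values measure the spread between libraries, which may be technical.

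Expected counts summed to between 18534377 and 50866706 per library. The labels were checked first. Fibroblast markers (13 genes) summed to 1001 and 1148 CPM (the counts scaled to the size of each library) in ESCs, against 35400 and 36870 CPM in empty-virus MEFs, and pluripotency markers (12 genes) summed to 5299 and 5399 CPM in ESCs, against 3.43 and 3.22 CPM in those MEFs. Cdh1 itself stood at 171 and 179 CPM in MEFs with the Cdh1 virus, against 0.412 and 0.486 CPM with the empty virus, and at 46.6 and 46.0 CPM in the CDH1+ fraction, against 7.27 and 7.24 CPM in the CDH1- fraction (both in DMSO). The source field of replicate 2 of the Cdh1-virus MEFs named day 2 reprogramming cells, against its other labels. By its title it was used as an uninduced MEF library, with Pou5f1 (Oct4) at 1.22 and 0.774 CPM in replicates 1 and 2, against 117 and 122 CPM in the 2 libraries of day 2 cells with the Cdh1 virus in DMSO. The MEF libraries also held macrophage and leukocyte transcripts (14 markers) at levels that differed between groups, with no marker at 0 in both libraries of any group, and their sums are given beside the main comparisons between groups. In bulk RNA, fewer cells of a type and less RNA per cell cannot be told apart.

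The promoters show which members carry the binding sequences of the pathway in the bases next to their start. RefSeq promoters of GRCm38.p6, from 250 bases before to 50 bases after each annotated start, were matched by symbol for 33 of the 43 members (39 promoters). Those of Ccl5, Usp18, Dhx58, Zbp1, Oas2, Mx1, Mx2, Rtp4, Parp9 and Parp14 were not matched. An ISRE core, searched on either strand as GAAA, any 2 bases and GAAA, lay in 15 of the 39 member promoters, each of a different gene, and in 3.44% of all 32851 promoters. A GAS core, searched as TTCNNNGAA, which reads alike on both strands, lay in 9 of the 39 and in 8.3% of all promoters. The 2 motifs can overlap, as they do in Bst2. A match is a string of letters and not a measured site of binding. The 250 bases before the start are printed for 6 members whose levels are described in detail, 5′ to 3′ on the gene's own strand, with ISRE and GAS letters in capitals.
Isg15, chr4:156200819-156201068, minus strand: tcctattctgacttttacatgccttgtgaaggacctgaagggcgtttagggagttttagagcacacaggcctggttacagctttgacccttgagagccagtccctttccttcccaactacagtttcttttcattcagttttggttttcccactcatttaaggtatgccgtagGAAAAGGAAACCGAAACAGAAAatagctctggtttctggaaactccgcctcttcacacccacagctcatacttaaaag
Ifit1, chr19:34640639-34640888, plus strand: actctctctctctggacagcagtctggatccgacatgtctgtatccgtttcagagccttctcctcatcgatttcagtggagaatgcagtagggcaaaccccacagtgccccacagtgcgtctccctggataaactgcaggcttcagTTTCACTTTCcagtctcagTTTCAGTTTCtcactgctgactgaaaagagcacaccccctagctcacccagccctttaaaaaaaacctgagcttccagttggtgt
Bst2, chr8:71537473-71537722, minus strand: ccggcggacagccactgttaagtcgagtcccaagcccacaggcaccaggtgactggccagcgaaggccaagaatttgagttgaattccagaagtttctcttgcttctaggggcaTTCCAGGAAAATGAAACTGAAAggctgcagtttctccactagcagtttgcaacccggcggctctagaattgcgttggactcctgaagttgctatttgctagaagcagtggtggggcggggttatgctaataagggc
Gbp2, chr3:142620413-142620662, plus strand: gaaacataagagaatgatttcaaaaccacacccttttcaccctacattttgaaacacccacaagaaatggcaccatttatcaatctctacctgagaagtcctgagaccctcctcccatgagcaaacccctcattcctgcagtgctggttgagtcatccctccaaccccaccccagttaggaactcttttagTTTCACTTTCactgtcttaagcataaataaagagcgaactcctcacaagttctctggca
Cxcl10, chr5:92348890-92349139, minus strand: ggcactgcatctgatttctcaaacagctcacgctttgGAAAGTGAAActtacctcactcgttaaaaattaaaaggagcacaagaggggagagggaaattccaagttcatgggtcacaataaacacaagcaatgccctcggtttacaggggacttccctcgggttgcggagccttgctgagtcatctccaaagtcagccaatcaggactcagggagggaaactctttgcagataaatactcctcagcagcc
Irf1, chr11:53769764-53770013, plus strand: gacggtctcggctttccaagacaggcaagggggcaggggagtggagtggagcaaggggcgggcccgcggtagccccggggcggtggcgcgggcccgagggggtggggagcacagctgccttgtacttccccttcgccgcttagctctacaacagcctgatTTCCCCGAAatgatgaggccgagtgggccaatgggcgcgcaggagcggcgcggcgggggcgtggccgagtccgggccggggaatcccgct

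Isg15 had 3 overlapping ISRE cores between 78 and 57 bases before the start, Ifit1 had 2 separate ones, and Gbp2 and Cxcl10 had 1 each, that of Cxcl10 lying farther out, 213 to 204 bases before the start. Bst2 had 2 overlapping ISRE cores joined to a GAS core. Irf1 held a GAS core and no ISRE core in this window.

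Interferon ligand genes were barely read in any library. Of 11 ligand genes in the files, 2 (Ifna1, Il28b) had no read, and 9 had at least 1. Apart from Ifnz, no ligand gene reached more than 3 reads in a library. Ifnz reached 23. Interferon protein in the medium was not measured. Ifnar1, a subunit of the type I receptor, had 149 and 150.5 CPM in Cdh1-virus MEFs, 149.7 and 149 CPM in empty-virus MEFs, 86.9 and 87.2 CPM in CDH1+ DMSO cells and 88.8 and 84.2 CPM in CDH1- DMSO cells. None of the 6 receptor genes was called between CDH1+ and CDH1- DMSO cells or between Cdh1 and empty virus in MEFs. Of all genes tested, 26.6% were called in either direction in the first comparison and 1.14% in the second, so 0 of 6 says little there.

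In untreated MEFs the members differed widely among themselves. On the TPM scale, which corrects for gene length, Ifitm3, which blocks the fusion of viruses with cell membranes, stood at 769.9 and 702 TPM. Bst2 (tetherin), which holds budding viruses on the cell surface, had 81.7 and 77.4 TPM, and Isg15, a ubiquitin-like modifier, had 28.0 and 31.9 TPM. At the low end Rsad2 had 0.37 and 0.32 TPM and Mx1, a dynamin-like antiviral GTPase, 0.05 and 0.02 TPM. The members thus include genes with a high standing level and genes close to silence in uninduced cells.

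At day 2 of reprogramming most members stood above untreated MEFs, and by day 4 many had fallen below the day 2 level. Of the 43 members, 27 rose and 5 fell between MEFs and day 2 in DMSO, where 40.4% of the 14473 genes tested rose and 34% fell at an adjusted p under 0.05. The median log2 fold change was 0.52 over the members and 0.06 over all genes tested. Between day 2 and day 4 in DMSO, 9 members rose and 27 fell, where 38.1% of all genes rose and 39.7% fell, with medians of -0.51 over the members and -0.000322 over all genes. Most of the genes tested moved at both steps. A group of 20 members rose at day 2 and then fell from day 2 to day 4 (Isg15, Usp18, Irf7, Ifit1, Oasl2, Oas1a, Oas2, Mx1, Cmpk2, Rtp4, Samd9l, Gbp3, Ifih1, Dhx58, Eif2ak2, Zbp1, Ifi44, Xaf1, Parp9 and Lgals3bp). The share of all genes with this pattern was not counted. Both steps use the same day 2 DMSO libraries, so a rise followed by a fall is partly coupled.

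Isg15 had 10.9 and 11.9 CPM in MEFs, 26.0 and 24.5 CPM at day 2 and 2.22 and 2.33 CPM at day 4 in DMSO. The libraries of the 3 stages did not overlap, and day 4 lay below both. Here and after, a value with ± is a log2 fold change with its standard error (SE). The log2 fold change was 1.14 ± 0.08 (SE; edgeR adjusted p = 1.2e-15) for day 2 over MEFs and -3.47 ± 0.10 (SE; edgeR adjusted p = 2.65e-28) for day 4 over day 2. Usp18, the protease that removes Isg15 and damps receptor signalling, had 3.73 and 3.50 CPM in MEFs, 7.64 and 6.99 CPM at day 2 and 0.669 and 0.63 CPM at day 4. The log2 fold change of Usp18 was -3.49 ± 0.19 (SE) for day 4 over day 2. Irf7, the factor that drives interferon alpha genes, moved less, with 4.64 and 5.37 CPM in MEFs, 6.77 and 7.11 CPM at day 2 and 3.15 and 2.92 CPM at day 4. Irf9, the DNA-binding subunit of the interferon complex, did not pass the test at day 2 (-0.02 ± 0.06) and was lower at day 4 than at day 2 (-0.39 ± 0.06). Stat2 fell and then rose, with 35.4 and 35.1 CPM in MEFs, 26.9 and 27.5 CPM at day 2 and 37.4 and 38.3 CPM at day 4.

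Among the sensors, 4 of 5 rose at day 2 and all 5 fell from day 2 to day 4. Of all genes 40.4% rose at day 2 and 39.7% fell from day 2 to day 4, so counts of 5 genes say little. Zbp1, a sensor of Z-form nucleic acid, had 0.431 and 0.294 CPM in MEFs and 3.26 and 2.52 CPM at day 2, and still 2.16 and 2.21 CPM at day 4. It was thus low in MEFs and above them at both later stages. Ddx58 (RIG-I) fell at both steps, with small log2 fold changes of -0.19 ± 0.05 and -0.20 ± 0.05.

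Of the 19 effectors, 12 rose and 2 fell at day 2, and 3 rose and 13 fell from day 2 to day 4. The shares of all genes were 40.4% and 34% at the first step and 38.1% and 39.7% at the second. Ifit1, which binds viral RNA with foreign ends, had 4.51 and 5.53 CPM in MEFs, 8.51 and 6.88 CPM at day 2 and 1.03 and 0.746 CPM at day 4. Oas1a, an oligoadenylate synthetase whose product activates RNase L, had 3.42 and 2.81 CPM in MEFs, 7.81 and 6.64 CPM at day 2 and 2.05 and 1.38 CPM at day 4. Both genes peaked at day 2, and their stages did not overlap. Oasl2, an oligoadenylate synthetase-like protein, had 3.14 and 2.43 CPM in MEFs, 6.54 and 7.25 CPM at day 2 and 1.14 and 1.07 CPM at day 4. Ifi44, an interferon-induced protein of the other targets, showed the largest rise and the largest fall of the members whose mean log2 CPM reached 1, with 1.14 and 0.775 CPM in MEFs, 8.31 and 6.99 CPM at day 2 and 0.431 and 0.863 CPM at day 4. Both of these also peaked at day 2. Oas2 and Xaf1 rose at day 2 by 1.93 ± 0.20 and 1.81 ± 0.10. Ifit2, a close relative of Ifit1, fell to 12.9 and 12.4 CPM at day 2, against 24.1 and 26.6 CPM in MEFs.

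Bst2, Ifitm3, Parp14 and Tap1 rose at both steps. Bst2 had 32.4 and 29.4 CPM in MEFs, 53.2 and 58.3 CPM at day 2 and 114 and 116 CPM at day 4, and Ifitm3 had 254 and 222 CPM, 402 and 419.7 CPM and 581 and 576 CPM at the same stages. Tap1, which carries peptides to class I molecules, had 16.9 and 14.8 CPM, 23.9 and 26.6 CPM and 38.1 and 37.9 CPM. The 3 genes were lowest in MEFs and highest at day 4 with no overlap between stages. The summed CPM of all members was 698 and 670.2 in MEFs, 978 and 993 at day 2 and 1070 and 1065 at day 4. Ifitm3 alone made up most of the sum at day 4. The sum therefore does not follow most members, of which 9 rose and 27 fell from day 2 to day 4. Psmb8, a subunit of the immunoproteasome, had 2.25 and 2.73 CPM in MEFs, 1.42 and 1.55 CPM at day 2 and 2.83 and 2.26 CPM at day 4. The lowest libraries were those of day 2. Gbp2, a guanylate-binding protein, did not pass the test at day 2 (-0.04 ± 0.12) and fell from day 2 to day 4 (-1.42 ± 0.14). Cxcl10, a chemokine for T cells, behaved likewise (-0.36 ± 0.24, then -1.51 ± 0.30). Ccl5, another chemokine, had 0.329 and 0.24 CPM in MEFs, 0.224 and 0.394 CPM at day 2 and 0.0647 and 0.303 CPM at day 4 and was not called. Over the whole span from MEFs to day 4, 13 members rose and 18 fell (30.2% and 41.9% of the members), where 41.2% of all genes rose and 41% fell. The macrophage and leukocyte markers summed to 290.3 and 289 CPM in MEFs, 106 and 105 CPM at day 2 and 275 and 270.0 CPM at day 4, lowest where the 20 members peaked. Their part in these results was not tested.

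**Figure D1:**
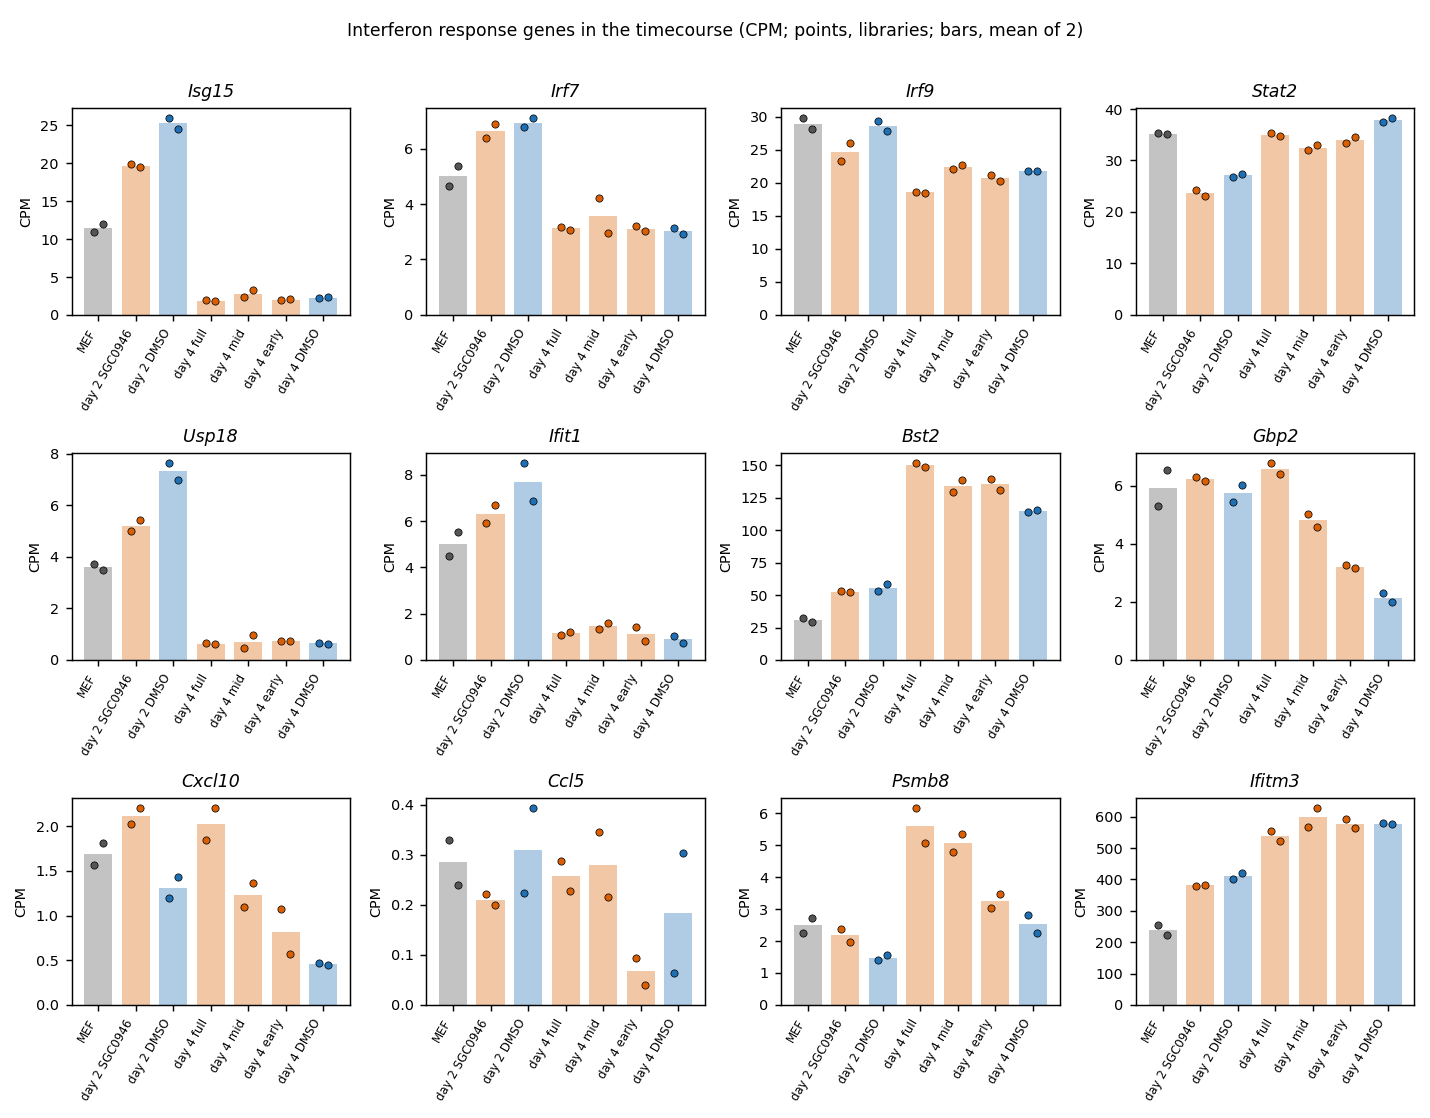
CPM (vertical axes) of 12 members in the 7 timecourse groups (horizontal axes), with points for the 2 libraries and bars for their mean. Isg15, Usp18 and Ifit1 peak at day 2 and are low in all day 4 groups, Bst2 and Ifitm3 climb with time, and Gbp2, Cxcl10 and Psmb8 are higher at day 4 with the full and mid inhibitor windows than in DMSO.

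At day 2 the inhibitor lowered a minority of the members. With SGC0946, 3 members were higher and 9 lower than in DMSO, where 8.73% of all genes were higher and 9.11% lower. The median log2 fold change of the members was -0.08, against -0.00458 over all genes. Isg15 had 19.9 and 19.4 CPM with SGC0946, against 26.0 and 24.5 CPM in DMSO, a log2 fold change of -0.36 ± 0.08 (SE; edgeR adjusted p = 0.000711). Usp18 had 4.99 and 5.42 CPM with SGC0946, against 7.64 and 6.99 CPM in DMSO (log2 -0.49 ± 0.13, edgeR adjusted p = 0.00779). The libraries did not overlap for either gene, and all 4 libraries lay above those of untreated MEFs. Stat2 and Irf9 were lower with SGC0946 (-0.20 ± 0.05 and -0.21 ± 0.06), as were the partners Parp9 and Dtx3l, a poly-ADP-ribose polymerase and a ubiquitin ligase (-0.31 ± 0.07 and -0.26 ± 0.08). The members that were higher were Cxcl10 (0.68 ± 0.23), Psmb8 (0.54 ± 0.19) and Irf1 (0.19 ± 0.06), which encodes a transcription factor that interferon gamma induces. Rsad2 and Mx1, antiviral effectors at low levels, were among the lower ones, with Rsad2 at 0.223 and 0.278 CPM with SGC0946, against 0.647 and 0.625 CPM in DMSO (-1.33 ± 0.41). The count of 12 is not firm, since leaving out any of the 4 libraries left between 3 and 5 members called, and DESeq2 called 0 higher and 6 lower.

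At day 4 most members that passed the test were higher with the inhibitor, in the windows that included days 2 to 4. With the full window 15 members were higher and 4 lower than in DMSO, where 19% of all genes were higher and 15.8% lower (medians 0.20 over the members and -0.00457 over all genes). With the mid window 13 were higher and 2 lower, where 2020 of all genes tested were higher and 1948 lower, 27.4% in either direction. With the early window 2 were higher and 0 lower in the edgeR test, where 3.19% and 2.45% of all genes were. At an unadjusted p under 0.05, 7 members differed in the early window. The 2 called members were Bst2 and Gbp2.

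Gbp2 had 6.79 and 6.39 CPM with the full window, 5.02 and 4.59 CPM with the mid window, 3.26 and 3.15 CPM with the early window and 2.31 and 1.98 CPM in DMSO. The 4 groups did not overlap and rose in the order DMSO, early, mid and full, with log2 fold changes over DMSO of 1.61 ± 0.13 (SE; edgeR adjusted p = 3.2e-13), 1.16 ± 0.14 (SE; edgeR adjusted p = 2.74e-08) and 0.57 ± 0.15 (SE; edgeR adjusted p = 0.0105). Cxcl10 had 1.85 and 2.20 CPM with the full window, 1.10 and 1.37 CPM with the mid window, 1.08 and 0.566 CPM with the early window and 0.475 and 0.443 CPM in DMSO. The full window exceeded DMSO by 2.14 ± 0.27 (SE; edgeR adjusted p = 3.09e-08), and exceeded the mid window by 0.71 ± 0.24. Psmb8 had 6.16 and 5.06 CPM with the full window, 4.79 and 5.34 CPM with the mid window, 3.05 and 3.46 CPM with the early window and 2.83 and 2.26 CPM in DMSO. Its full and mid windows overlapped and both lay above DMSO. Bst2 had 152 and 148 CPM with the full window, 129.7 and 138 CPM with the mid window, 139.9 and 131 CPM with the early window and 114 and 116 CPM in DMSO.

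Gbp3, the RNA sensor Ifih1 (MDA5) and Irf1 were higher with the full window by 0.88 ± 0.17, 0.84 ± 0.12 and 0.42 ± 0.06, and with the mid window by 0.81 ± 0.18, 0.54 ± 0.12 and 0.48 ± 0.06. Ifi44 was higher with the full window by 1.06 ± 0.26 on values of 1.49 and 1.203 CPM, against 0.431 and 0.863 CPM in DMSO. Isg15 did not pass the test with the full window, at 2.01 and 1.78 CPM, against 2.22 and 2.33 CPM in DMSO (-0.27 ± 0.15). Usp18 did not pass it either (-0.03 ± 0.28). The members that fell with the full window were Oas1a (-0.60 ± 0.21), Ifit2 (-0.31 ± 0.09), Ifi35 (-0.28 ± 0.07) and Irf9 (-0.23 ± 0.06). Set against the early window, the full window had 15 members higher and 0 lower in the edgeR test, where 16.6% and 14.4% of all genes were, and 20 members had an unadjusted p under 0.05. Set against the mid window it had 4 higher and 4 lower, where 11.6% and 8.51% of all genes were, and without 1 library of either group 3 to 5 members were called. The markers of macrophages and leukocytes summed to 259 and 256 CPM with the full window, against 275 and 270.0 CPM in DMSO, while 11 of 11 epithelial markers were higher with it.

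The effect of the inhibitor differed between the full window at day 4 and day 2 for 8 members in a test of the difference itself, 7 upward at day 4 and 1 downward, where 5.61% and 3.57% of all genes were. Without replicate 1 of day 2 in DMSO or replicate 2 of day 2 with SGC0946 the count was 5. The difference of log2 effects was 1.49 ± 0.17 for Gbp2, 1.45 ± 0.36 for Cxcl10, 0.84 ± 0.16 for Ifih1 and 0.47 ± 0.06 for Bst2. Of the 8, it was largest for Rsad2, a gene at low levels (1.94 ± 0.63). For Isg15 it was 0.09 ± 0.17 and did not pass the test (adjusted p = 0.841).

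In the cells sorted by CDH1 the members stood higher in the CDH1+ fraction. In DMSO, 33 of 43 members were higher in CDH1+ than in CDH1- cells and 0 were lower by edgeR, where 12.8% of the 13968 genes tested were higher and 13.8% lower. At an unadjusted p under 0.05, 34 members differed. The median log2 fold change was 0.56 over the members and 0.0011 over all genes tested. The calls spanned all roles, with Cxcl10 of the 2 chemokines, 5 of 7 regulators, 5 of 5 sensors, 13 of 19 effectors, 2 of 3 genes of antigen processing and 7 of 7 other targets. In 32 of the 33 the libraries of the fractions did not overlap, and Cxcl10 was the exception. Among the called members the log2 fold changes lay between 0.12 ± 0.03 for Ifitm3 and 1.03 ± 0.06 for Ifi44.

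Isg15 had 69.1 and 67.1 CPM in CDH1+ cells, against 36.9 and 37.9 CPM in CDH1- cells in DMSO, a log2 fold change of 0.86 ± 0.05 (SE; edgeR adjusted p = 2.23e-32). Usp18 had 18.3 and 21.7 CPM in CDH1+ cells, against 11.2 and 10.3 CPM in CDH1- cells (log2 0.89 ± 0.08, edgeR adjusted p = 5.58e-16). Ifit1 had 29.3 and 28.9 CPM in CDH1+ cells, against 15.7 and 16.5 CPM in CDH1- cells (log2 0.86 ± 0.06, edgeR adjusted p = 4.02e-22). In each of these genes both CDH1+ libraries lay above both CDH1- libraries. Oasl2 had 16.4 and 16.1 CPM in CDH1+ cells, against 8.38 and 7.74 CPM in CDH1- cells, and Ifi44 had 35.8 and 37.9 CPM, against 17.7 and 18.2 CPM. Bst2 had 88.1 and 87.8 CPM in CDH1+ cells, against 51.2 and 54.1 CPM in CDH1- cells, and Irf7 had 11.2 and 11.5 CPM, against 6.69 and 7.91 CPM. Dhx58 (LGP2), a modulator of the RNA sensors, was higher by 0.83 ± 0.16, Gbp2 by 0.71 ± 0.09, Stat2 by 0.48 ± 0.06 and Irf9 by 0.37 ± 0.06.

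Other interferon targets, a list of 43 genes that holds no member, had 27 higher and 0 lower by edgeR in CDH1+ DMSO cells. Their median log2 fold change was 0.46, and of all genes tested 12.8% were higher and 13.8% lower. Examples are Irgm1 (0.66 ± 0.04) and Slfn2 (0.75 ± 0.09), an immunity-related GTPase and a Schlafen protein. The list was chosen with earlier results of these data known, so its counts are not independent support. Macrophage and leukocyte markers moved in the same direction. All 13 of those tested were higher in CDH1+ DMSO cells, and the 14 markers summed to 206 and 206 CPM in CDH1+ cells, against 94.5 and 92.7 CPM in CDH1- cells. The macrophage gene Emr1 stood at 5.71 and 4.99 CPM in CDH1+ cells, against 0.286 and 0.204 CPM in CDH1- cells, and Lyz2 at 32.8 and 35.2 CPM, against 4.29 and 4.23 CPM. Their part in the higher member levels was not tested.

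After the sort most members that passed the test were lower with the inhibitor in both fractions. In CDH1+ cells 4 members were higher and 27 lower with SGC0946 than in DMSO, where 8.33% of all genes were higher and 10.5% lower, with medians of -0.42 over the members and 0.00114 over all genes. In CDH1- cells 3 were higher and 17 lower, where 7.82% and 10.8% of all genes were, with medians of -0.15 and -0.0012. Isg15 had 25.9 and 27.9 CPM with SGC0946, against 69.1 and 67.1 CPM in DMSO in CDH1+ cells (log2 -1.34 ± 0.05, edgeR adjusted p = 7.96e-47). In CDH1- cells it had 20.6 and 20.8 CPM with SGC0946, against 36.9 and 37.9 CPM in DMSO (log2 -0.85 ± 0.05, edgeR adjusted p = 2.23e-26). The CDH1+ cells with inhibitor thus lay below the CDH1- cells in DMSO.

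Usp18 had 9.72 and 9.50 CPM with SGC0946, against 18.3 and 21.7 CPM in DMSO in CDH1+ cells, and 5.22 and 5.92 CPM, against 11.2 and 10.3 CPM, in CDH1- cells. Rtp4, a chaperone of membrane receptors, had 4.48 and 4.06 CPM with SGC0946, against 9.53 and 10.4 CPM in DMSO in CDH1+ cells (-1.22 ± 0.11). Ifi44, Oasl2 and the apoptosis factor Xaf1 fell in both fractions, with log2 fold changes of -1.18 ± 0.06, -1.11 ± 0.09 and -0.88 ± 0.05 in CDH1+ cells and of -0.56 ± 0.07, -0.67 ± 0.11 and -0.53 ± 0.06 in CDH1- cells. Bst2 had 55.6 and 56.9 CPM with SGC0946, against 88.1 and 87.8 CPM in DMSO in CDH1+ cells, but 53.3 and 54.3 CPM, against 51.2 and 54.1 CPM, in CDH1- cells, where it was not called. Irf7, Stat2 and Irf9 fell in both fractions, with log2 fold changes of -0.81 ± 0.10, -0.58 ± 0.05 and -0.55 ± 0.06 in CDH1+ cells.

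Some members went against the rest. Cxcl10 was higher with SGC0946 in both fractions, with 2.37 and 2.76 CPM, against 1.19 and 2.11 CPM in DMSO in CDH1+ cells (log2 0.64 ± 0.19, edgeR adjusted p = 0.0105) and 2.66 and 2.98 CPM, against 0.887 and 1.197 CPM, in CDH1- cells (log2 1.43 ± 0.21, edgeR adjusted p = 8.69e-08). Rsad2 (viperin), an antiviral enzyme that makes a chain-terminating nucleotide, was higher by 1.25 ± 0.24 in CDH1+ cells and 0.74 ± 0.27 in CDH1- cells, on levels of 2.01 and 1.74 CPM with SGC0946, against 0.775 and 0.793 CPM in DMSO in CDH1+ cells. Its neighbour in the genome, Cmpk2, was higher in CDH1- cells (1.01 ± 0.23). Mx1 and Herc6, which attaches Isg15 to proteins in the mouse, were higher in CDH1+ cells by 1.58 ± 0.45 and 0.38 ± 0.13, with Mx1 at 0.651 and 0.616 CPM with SGC0946, against 0.103 and 0.317 CPM in DMSO.

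The effect of the inhibitor was more negative in CDH1+ than in CDH1- cells for 5 members in a test of the difference itself. It was more positive for 0 by edgeR, where 0.136% of all genes had a more negative and 0.0501% a more positive effect. At an unadjusted p under 0.05, 18 members differed. The 5 were Bst2 (log2 -0.68 ± 0.06, edgeR adjusted p = 6.02e-17), Ifi44 (log2 -0.62 ± 0.09, edgeR adjusted p = 2.43e-06), Isg15 (log2 -0.48 ± 0.07, edgeR adjusted p = 3.1e-06), Lgals3bp (log2 -0.41 ± 0.05, edgeR adjusted p = 9.94e-09), which is a secreted glycoprotein, and Xaf1 (log2 -0.36 ± 0.08, edgeR adjusted p = 0.0119). They made up 26.3% of the 19 genes with a more negative effect. The test of the difference uses the same DMSO libraries as the comparison of the fractions in DMSO, so these results are not independent. With the inhibitor in both fractions, 18 members were higher and 1 lower in CDH1+ than in CDH1- cells, where 1890 of all genes tested were higher and 1859 lower, 26.8% in either direction, with a median of 0.26. The macrophage and leukocyte markers summed to 166 and 165 CPM with SGC0946, against 206 and 206 CPM in DMSO in CDH1+ cells, and to 79.9 and 77.6 CPM, against 94.5 and 92.7 CPM, in CDH1- cells. Their part in the fall was not tested.

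**Figure D2:**
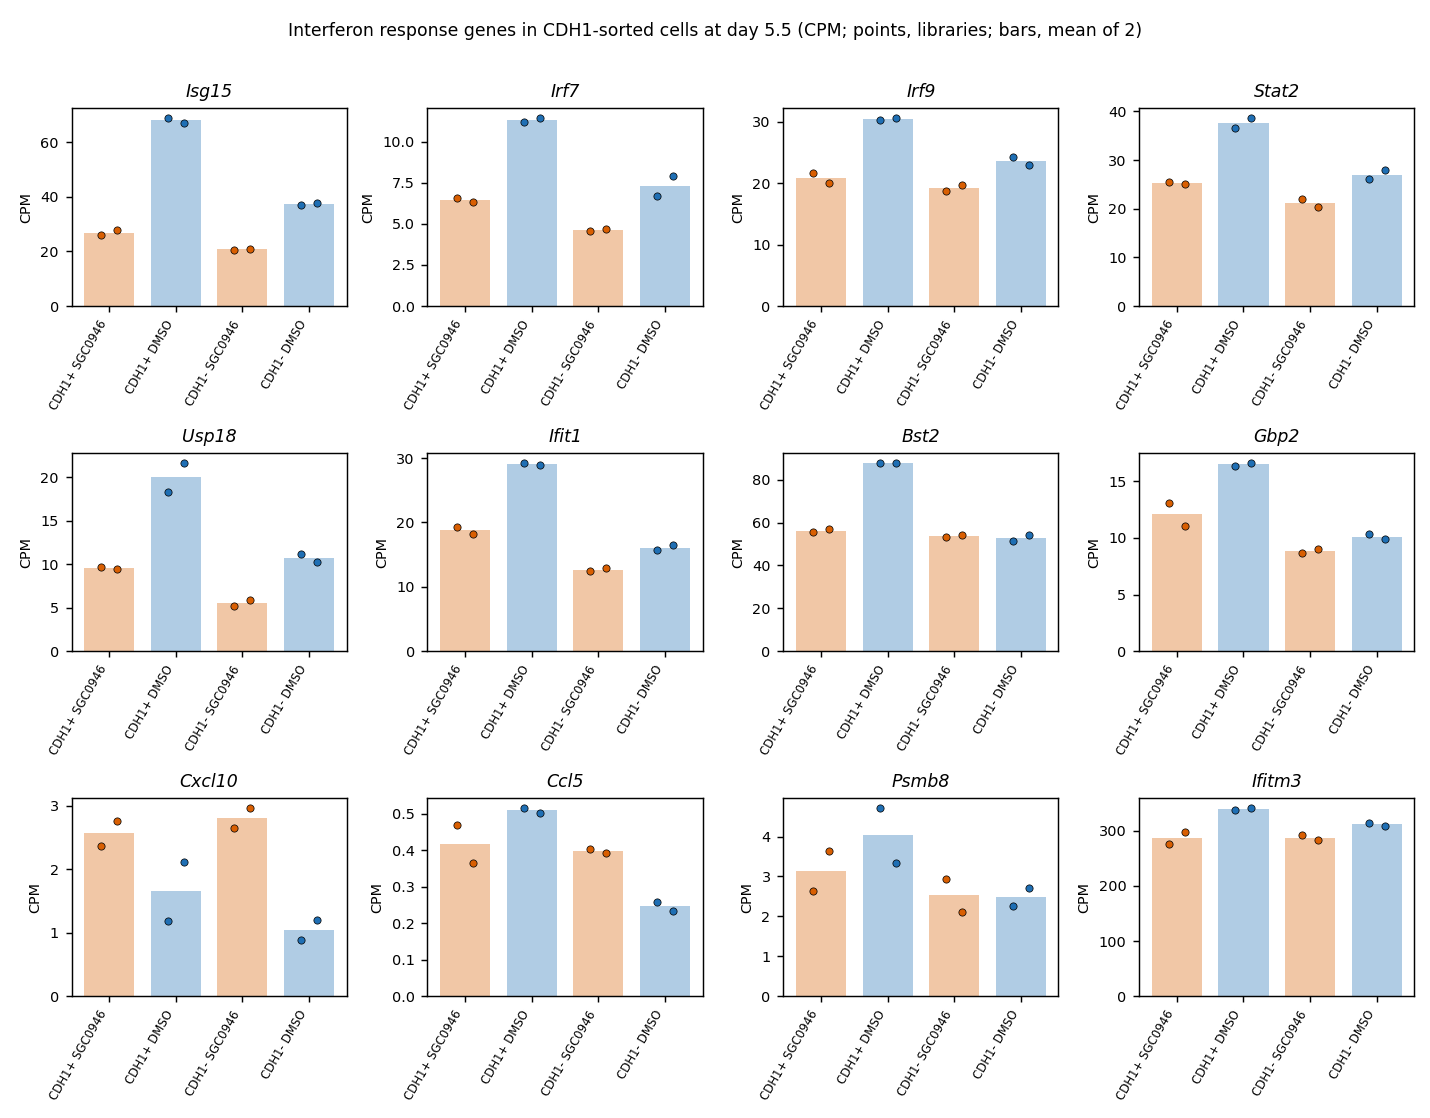
CPM (vertical axes) of 12 members in the 4 sorted groups at day 5.5 (horizontal axes), with points for the 2 libraries and bars for their mean. Isg15, Usp18, Ifit1 and Bst2 are highest in CDH1+ cells in DMSO, and Cxcl10 is higher with SGC0946 in both fractions.

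In uninduced MEFs the Cdh1 virus gave higher levels of most members than the empty virus. Of 43 members 30 were higher and 0 lower by edgeR, while among the 15044 genes tested 0.612% were higher and 0.525% lower. At an unadjusted p under 0.05, 39 members differed, and 42 of the 43 had a positive log2 fold change. The median log2 fold change was 0.60 over the members and 0.00782 over all genes. Leaving out any of the 4 libraries left between 21 and 25 members called, and 25 without replicate 2 of the Cdh1-virus MEFs. The whole comparison had 92 higher genes, and the 30 members were 32.6% of them.

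The chemokine Cxcl10 had 7.73 and 5.42 CPM with the Cdh1 virus, against 0.503 and 0.53 CPM with the empty virus, a log2 fold change of 3.68 ± 0.28 (SE; edgeR adjusted p = 6.82e-09). Ifit1 had 101 and 94.9 CPM with the Cdh1 virus, against 25.4 and 28.8 CPM with the empty virus (log2 1.85 ± 0.09, edgeR adjusted p = 1.65e-12). Isg15 had 65.2 and 65.1 CPM with the Cdh1 virus, against 20.8 and 20.4 CPM with the empty virus (log2 1.66 ± 0.08, edgeR adjusted p = 3.27e-12). The viruses did not overlap in any of the 3 genes. Usp18 had 22.9 and 24.4 CPM, against 7.74 and 9.23 CPM with the empty virus, and Irf7 had 16.1 and 16.7 CPM, against 6.96 and 7.15 CPM. Mx2, a dynamin-like GTPase that traps viral particles, had 10.1 and 10.9 CPM, against 3.89 and 3.36 CPM with the empty virus. Rsad2 had 8.31 and 7.28 CPM, against 0.595 and 0.574 CPM (log2 3.73 ± 0.25, edgeR adjusted p = 6.23e-10), the largest log2 fold change of all members, followed by Cxcl10 and Oasl1 (3.24 ± 0.46).

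Stat2 had 111 and 119 CPM with the Cdh1 virus, against 74.0 and 77.0 CPM with the empty virus (0.60 ± 0.07), and Irf9 had 67.0 and 61.8 CPM, against 49.7 and 50.2 CPM (0.37 ± 0.08). Bst2 and Gbp2 were higher by 0.55 ± 0.09 and 0.83 ± 0.11. The 3 genes of antigen processing were not called, with 0.36 ± 0.14 for Psmb8, 0.14 ± 0.26 for Psmb9 and 0.19 ± 0.07 for Tap1, and neither was Ifitm3 (0.28 ± 0.10) or the chemokine Ccl5 (1.19 ± 0.56). Among the 43 other interferon targets 13 were higher and 0 lower by edgeR, for example Iigp1 (1.18 ± 0.16) and Irgm2 (0.73 ± 0.09), both immunity-related GTPases. That list was chosen with earlier results of these data known. None of the 12 further genes of antigen presentation was called. Of all genes tested 0.612% were higher and 0.525% lower, so the lack of a call among 12 genes says little. Macrophage and leukocyte markers moved against the members here. They summed to 1028 and 905 CPM with the Cdh1 virus, against 1508 and 1615 CPM with the empty virus, and 12 of 14 were lower. Virus dose was not given in the sources used here, so a difference of dose and the Cdh1 insert cannot be told apart.

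After 2 days of doxycycline no member was called between the viruses. In DMSO 0 of 43 members were called between Cdh1 and empty virus by edgeR, 8 had an unadjusted p under 0.05, and 0.146% and 0.751% of all genes were higher and lower. Isg15 had 2.08 and 2.17 CPM with the Cdh1 virus, against 2.92 and 3.17 CPM with the empty virus (-0.52 ± 0.15), and Ifit1 had 0.911 and 0.838 CPM, against 1.56 and 1.15 CPM (-0.62 ± 0.25). Both genes lay below the uninduced MEFs of either virus. The markers of macrophages and leukocytes summed to 127 and 125 CPM with the Cdh1 virus, against 302 and 289 CPM with the empty virus, and their part was not tested. In a test of the difference itself, the log2 effect of the Cdh1 virus was more negative at day 2 than in MEFs for 7 members and more positive for 0, where that of 0.166% of all genes was more negative and that of 0.0133% more positive. The 7 were Cxcl10 (-3.99 ± 0.43), Ifit1 (-2.48 ± 0.27), Isg15 (-2.18 ± 0.17), Oasl2 (-1.67 ± 0.25), Ifit3 (-1.60 ± 0.17), Usp18 (-1.23 ± 0.20) and Parp9 (-0.61 ± 0.13).

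Day 2 cells of this experiment had lower member levels than MEFs with the same virus. With the Cdh1 virus 0 members were higher and 39 lower by edgeR at day 2 in DMSO than in MEFs, where 33.4% and 32.6% of all genes were, with a median of -1.82, against 0.000681 over all genes. All 39 had an unadjusted p under 0.05 and no other member did. Macrophage and leukocyte markers moved with them, at 127 and 125 CPM at day 2, against 1028 and 905 CPM in MEFs with the Cdh1 virus, and their part was not tested. With the empty virus 4 were higher and 30 lower, where 33.4% and 32.7% of all genes were, with a median of -0.93. Both counts stand against MEFs in another medium and without feeders. Ifit1 had 1.56 and 1.15 CPM at day 2 in DMSO, against 25.4 and 28.8 CPM in MEFs with the empty virus (log2 -4.33 ± 0.14, edgeR adjusted p = 6.38e-18), and Ifit3 had 4.88 and 4.21 CPM, against 38.8 and 39.6 CPM. Isg15 had 2.92 and 3.17 CPM at day 2, against 20.8 and 20.4 CPM in MEFs (log2 -2.75 ± 0.11, edgeR adjusted p = 3.57e-16). In the timecourse Isg15 and Ifit1 had risen at day 2, and Ifit3 had not passed the test (0.02 ± 0.14). The members that were higher at day 2 with the empty virus were Cxcl10 (1.37 ± 0.37), Zbp1 (1.13 ± 0.24), Isg20 (0.89 ± 0.23), an exonuclease, and Ifi35 (0.22 ± 0.09).

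In a joint fit of both experiments the change from MEFs to day 2 differed between the empty-virus cells and the timecourse for 35 members, 32 more negative and 3 more positive with the virus, where 28.2% of the 14808 genes tested were more negative and 29.4% more positive. The median difference was -1.69 over the members and 0.00121 over all genes. Among members whose mean log2 CPM reached 1, Ifi44 (log2 -5.21 ± 0.32, edgeR adjusted p = 7.72e-16) and Ifit1 (log2 -4.95 ± 0.23, edgeR adjusted p = 5.3e-17) differed most, followed by Isg15 (log2 -3.90 ± 0.15, edgeR adjusted p = 2.82e-22) and Oasl2 (log2 -3.89 ± 0.22, edgeR adjusted p = 2.74e-17). Rtp4 (-3.46 ± 0.25) and Oas1a (-3.32 ± 0.32) came next, and Isg20 was more positive with the virus (1.34 ± 0.31). Below that level, Mx2 was more negative (-4.35 ± 0.44) and Cxcl10 more positive (1.73 ± 0.46) with the virus. In all, 21 members rose at day 2 in the timecourse and fell at day 2 with the empty virus, 77.8% of the 27 and 70% of the 30, while 69.8% of all members fell with the empty virus. The experiments differed in read layout and infection, and only changes within each were set against each other. The markers of macrophages and leukocytes summed to 302 and 289 CPM at day 2, against 1508 and 1615 CPM in MEFs with the empty virus, and their part was not tested.

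In infected day 2 cells few members passed the test for the inhibitor. With the empty virus 0 members were higher and 2 lower with SGC0946 by edgeR, where 3.22% and 3.52% of all genes were, and 6 had an unadjusted p under 0.05. With the Cdh1 virus 0 were higher and 1 lower, where 2.82% and 2.23% of all genes were, and 8 had an unadjusted p under 0.05. Without 1 library in turn these counts ran from 0 to 2 with the empty virus and from 0 to 6 with the Cdh1 virus. Isg15 had 2.03 and 1.41 CPM with SGC0946, against 2.92 and 3.17 CPM in DMSO with the empty virus (log2 -0.86 ± 0.17, edgeR adjusted p = 0.00373). Ifitm3 had 297 and 262 CPM with SGC0946, against 373 and 358 CPM in DMSO with the empty virus (log2 -0.39 ± 0.10, edgeR adjusted p = 0.0336). With the Cdh1 virus the called member was Ifi35, at 19.6 and 16.0 CPM with SGC0946, against 22.7 and 23.3 CPM in DMSO (log2 -0.37 ± 0.09, edgeR adjusted p = 0.0201). No member was called for a difference in inhibitor effect between the viruses (edgeR, 0 of 43, 1 at an unadjusted p under 0.05, and 0 of all genes), nor between the empty-virus cells and the timecourse at day 2 (0 of 43, 11 at an unadjusted p under 0.05, 1.96% of all genes more positive and 2.34% more negative).

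**Figure D3:**
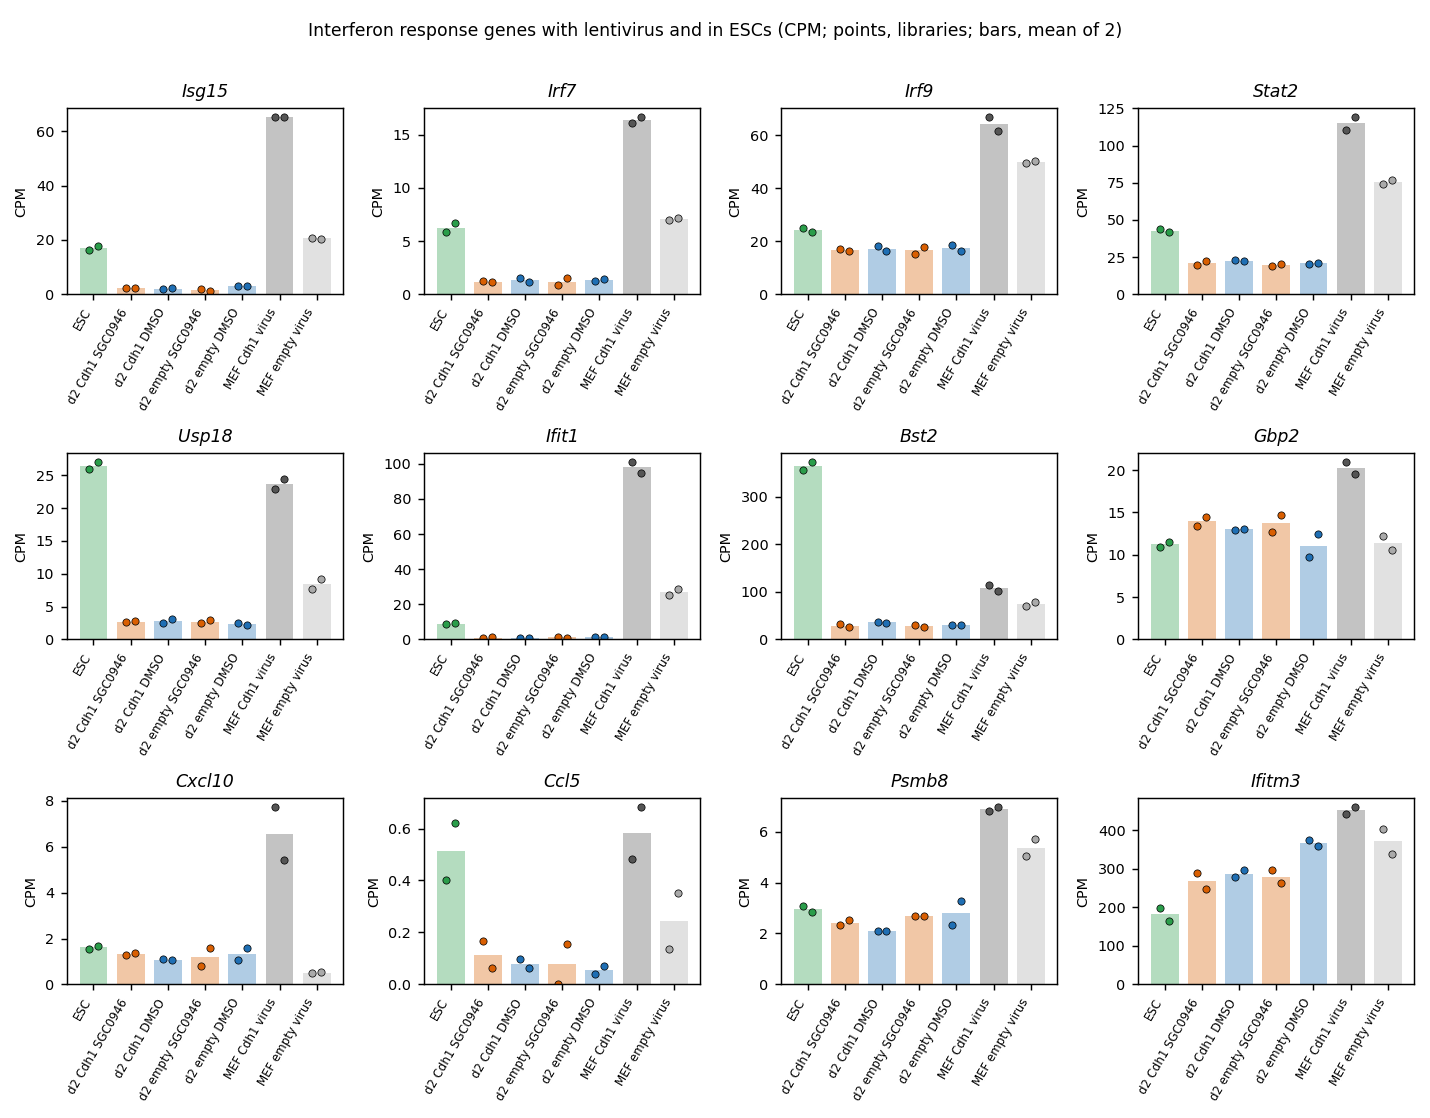
CPM (vertical axes) of 12 members in ESCs and the 6 lentivirus groups (horizontal axes; d2, 2 days of doxycycline), with points for the 2 libraries and bars for their mean. Isg15, Ifit1, Irf7 and Cxcl10 are higher in MEFs with the Cdh1 virus than with the empty virus, and Isg15, Ifit1 and Irf7 are low in all 4 day 2 groups, while Bst2 and Usp18 are highest in ESCs.

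Further genes of the pathway were counted in lists that hold no member, and each count reads against the share of all genes in the same comparison. These lists were also chosen with earlier results of these data known. In CDH1+ against CDH1- DMSO cells 4 of 16 further genes of nucleic acid sensing were higher and 4 lower, and 5 of 11 further genes of antigen presentation were higher and 0 lower, where 12.8% of all genes were higher and 13.8% lower. With the inhibitor in CDH1+ cells 1 sensing gene was higher and 4 lower, 1 presentation gene was higher and 1 lower, and of the 43 other targets 2 were higher and 24 lower, with a median of -0.34, where 8.33% of all genes were higher and 10.5% lower. With the Cdh1 virus in MEFs 1 of 17 sensing genes was higher and 1 lower, where 0.612% and 0.525% of all genes were. At day 2 of the timecourse 10 of 16 sensing genes rose and 3 fell, 3 of 12 presentation genes rose and 5 fell, and 19 other targets rose and 6 fell, where 40.4% of all genes rose and 34% fell, so several of these counts are near the share of all genes. From day 2 to day 4, 10 other targets rose and 22 fell, where 38.1% and 39.7% of all genes did. Among the 6 receptor genes 0 rose and 4 fell at day 2, and with the full window at day 4, 3 were higher and 0 lower, where 19% and 15.8% of all genes were. Markers of epithelial cells (11 genes) had 9 higher in CDH1+ DMSO cells and 3 higher with the Cdh1 virus in MEFs, Cdh1 among both. No endothelial marker was called in these comparisons (0 of 5 in the sort, 0 of 6 with the virus), and pluripotency markers had 7 of 9 higher in CDH1+ DMSO cells. Apart from Kdr and Tek, the endothelial markers tested were near the floor. With the virus so few of all genes were called that 0 of 6 says little.

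Between ESCs and empty-virus MEFs the members moved in both directions, at a share no higher than that of all genes. Of 43 members 18 were higher and 18 lower in ESCs (41.9% each), where 44.5% of all genes were higher and 44.1% lower. The higher ones included the oligoadenylate synthetase Oas1a, with 25.7 and 25.7 CPM in ESCs, against 2.98 and 3.88 CPM in MEFs (log2 2.90 ± 0.16, edgeR adjusted p = 1.11e-14), Bst2 with 356 and 373 CPM, against 70.3 and 77.7 CPM in MEFs (log2 2.30 ± 0.09, edgeR adjusted p = 3.83e-14), and Usp18 with 25.9 and 27.0 CPM, against 7.74 and 9.23 CPM. Per length, Bst2 was the most abundant member in ESCs, with 854 and 884 TPM, ahead of Ifitm3 with 572 and 466 TPM. Lower in ESCs were Lgals3bp (-3.42 ± 0.08), Samd9l, an inhibitor of translation (-2.55 ± 0.12), the sensor Ifih1 (-2.48 ± 0.14), Ifi35 (-2.37 ± 0.12), Ifit2 (-1.91 ± 0.09) and Ifit3 (-1.90 ± 0.10). Isg15 was slightly lower, at 16.3 and 17.6 CPM in ESCs, against 20.8 and 20.4 CPM in MEFs (-0.28 ± 0.09). Feeders had been removed before harvest, and fibroblast markers were all lower in ESCs (13 of 13). Macrophage and leukocyte markers summed to 38.6 and 40.9 CPM in ESCs, against 1508 and 1615 CPM in empty-virus MEFs, and their part was not tested. The MEFs of this comparison carried a virus and the inducible alleles and were kept in serum medium. The ESCs were uninfected V6.5 cells grown with leukemia inhibitory factor on feeders. Cell type, infection, genotype, medium and feeders therefore cannot be told apart.

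Across comparisons with no library in common, the called members overlapped as follows, with the share of all 43 members called given beside each overlap. Of the 30 members higher with the Cdh1 virus in MEFs, 26 were also higher in CDH1+ than in CDH1- DMSO cells, 86.7% of the 30 and 78.8% of the 33, while 76.7% of all members were higher in CDH1+ cells. Of the 27 members lower with the inhibitor in CDH1+ cells, 22 were higher with the Cdh1 virus in MEFs, 81.5% of the 27 and 73.3% of the 30, while 69.8% of all members were higher with that virus. Of the 9 members lower with the inhibitor at day 2 of the timecourse, 7 were lower with it in CDH1+ cells (Dtx3l, Ifi35, Irf9, Isg15, Parp9, Stat2 and Usp18), 77.8% of the 9 and 25.9% of the 27, while 62.8% of all members were lower with it in CDH1+ cells. Of the 15 members higher with the full window at day 4, 8 were lower with the inhibitor in CDH1+ cells (Bst2, Ddx58, Gbp2, Gbp3, Ifi44, Ifih1, Lgals3bp and Parp14), 53.3% of the 15 and 29.6% of the 27, below the 62.8% of all members. Cxcl10 was called higher with the inhibitor in both. No test of these overlaps was made.

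**Figure D4:**
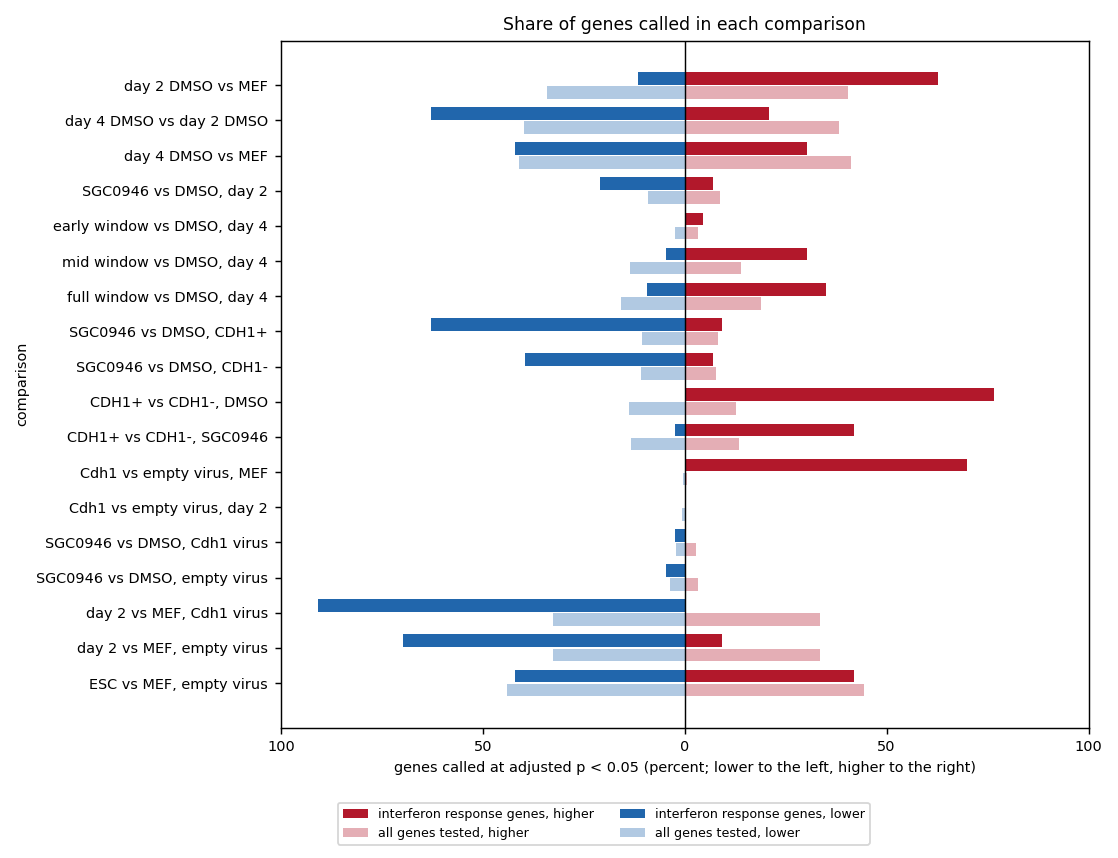
Percent of genes called at an adjusted p under 0.05 (horizontal axis, higher to the right and lower to the left) in 18 comparisons (vertical axis), in full colour for the 43 members and in pale colour for all genes tested. With the Cdh1 virus in MEFs 69.8% of the members and 0.612% of all genes are higher, and in CDH1+ against CDH1- DMSO cells 76.7% of the members and 12.8% of all genes are higher.

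Members of the list differed in how often they were called. The 26 comparisons include 6 differences of effects, where a lower call means a more negative effect and not a lower level. Over all 26, Isg15 was called higher in 4 and lower in 13, and Bst2 higher in 12 and lower in 5. Many of the comparisons share libraries, and no such tally was made over all genes. Cxcl10 was called higher in 13 and lower in 4. Ccl5, with at most 21 reads in a library, was called in 2, and Oas3 in 3. Psmb9 was called higher in 4 and lower in 0 by edgeR. Mx1 had at most 67 reads in a library and Oasl1 at most 58, so counting noise limits their values. Ifit3, Oas1a, Mx1 and Mx2 have close copies among the mouse genes, and reads that fit more than 1 copy had been divided between them by a model before deposit, so their values are uncertain in that respect.

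**Figure D5:**
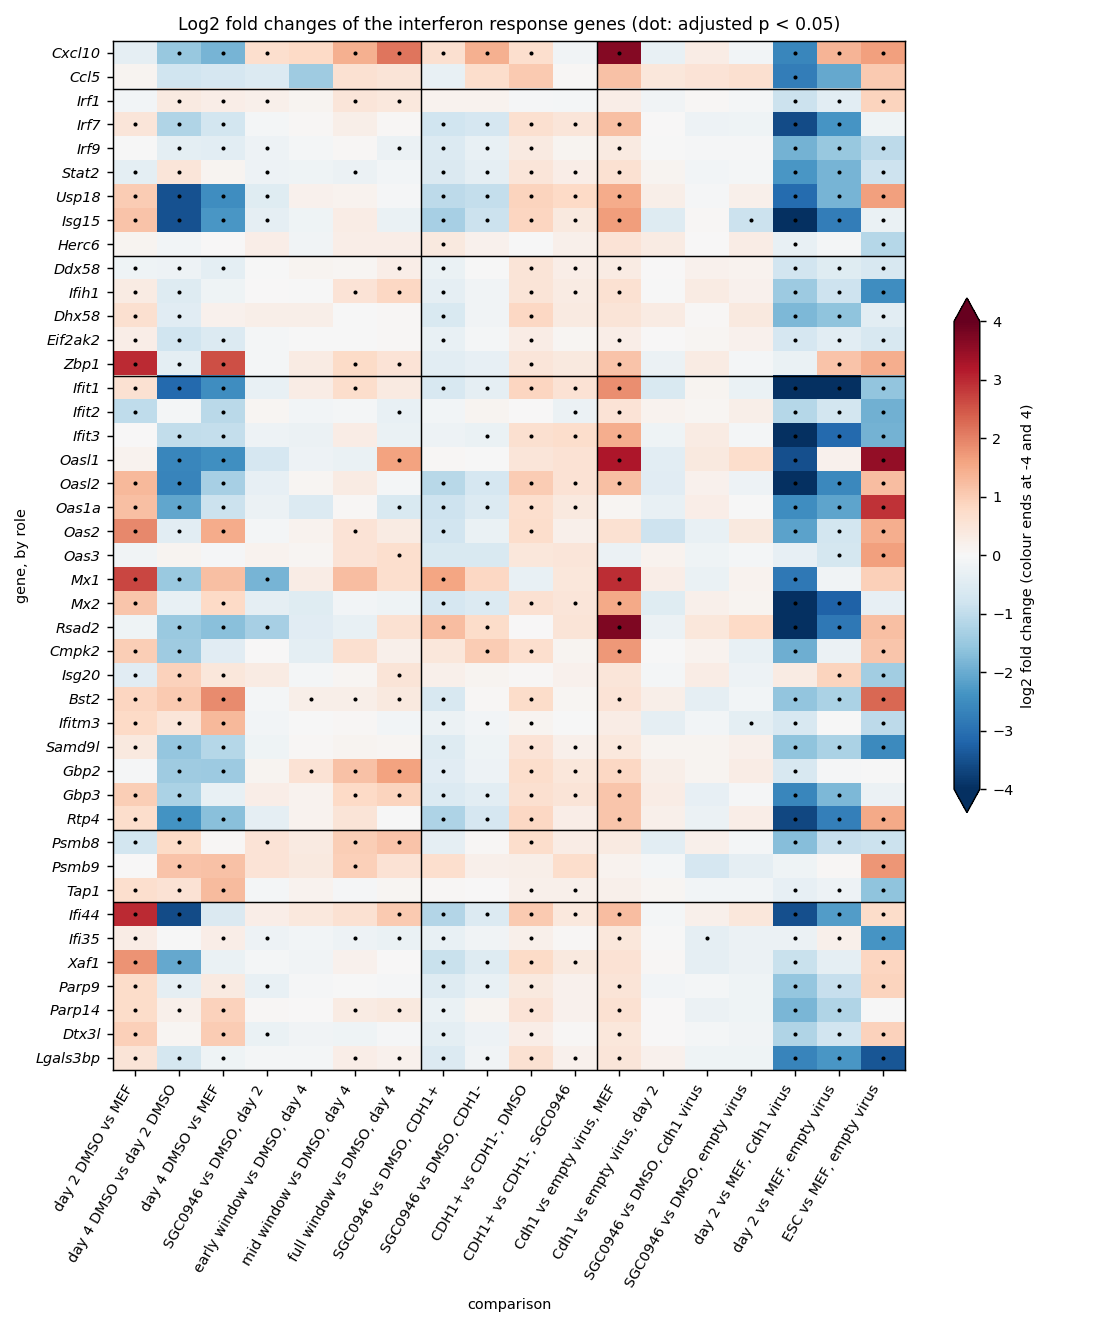
Log2 fold changes (colour, ending at -4 and 4) of the 43 members (vertical axis, grouped by role) in 18 comparisons (horizontal axis), with a dot where the adjusted p was under 0.05. Isg15, Usp18, Ifit1, Oasl2 and Rtp4 share the same colours in most columns, Cxcl10 and Rsad2 rise with SGC0946 in sorted cells where most members fall, and Bst2 is higher at each later day of the timecourse.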

How the data were processed

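RNA of 36 libraries in 18 groups of 2 had been sequenced, and for each library the authors deposited a table of RSEM results by gene symbol. Per the submitters' processing notes, the tools were Trimmomatic, Bowtie and RSEM 1.2.4, with the genome builds mm9 and hg18. The deposited expected counts are estimates that need not be whole, with reads that fit several genes divided between them, and the deposited TPM values are scaled per length and per library. The annotation used for counting is not given in the sources used here. Per the labels, human 293T RNA was added to the timecourse and sort samples, and the spike was not used here.

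Expected counts were rounded and tested with edgeR 4.0.16 (TMM scaling, filterByExpr with a minimum count of 10 and a minimum total of 15, quasi-likelihood test with robust fitting, Benjamini-Hochberg adjustment over all genes tested) in R 4.3.3. The timecourse, the sort, and the lentivirus libraries with ESCs were fitted separately, with 14473, 13968 and 15044 genes tested, and a fit that joined timecourse and lentivirus libraries (14808 genes) gave differences between them. A gene was called at an adjusted p under 0.05. Levels are CPM within each fit. TPM values were used only for levels between genes and, as log2(TPM + 1) with a pseudocount of 1, in limma 3.58.1. The other alternatives were DESeq2 1.42.0, RLE size factors, no filter on low counts, the replicate number as a block, only the groups compared, and leaving out each library in turn. Per-library values were given for up to 6 called members in each direction with the largest log2 fold change, a mean log2 CPM that reached 1 and groups that did not overlap, for 12 members chosen by role, and for members named beside them.

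Expected counts per library summed to 32883668 to 50866706 in the timecourse, 34927901 to 43123011 in the sort, 18534377 to 35852109 in the lentivirus experiment and 30694671 to 35161935 for ESCs. On simulated data of 13767 genes for the inhibitor in CDH1+ cells, 58% of genes changed 1.2-fold and 92% of genes changed 1.5-fold were recovered. On simulated data of 13856 genes for the Cdh1 virus in MEFs the shares were 28% and 90%. The changed genes, 50 for each fold, all had a mean simulated count over 50, and all other genes were equal in all groups. Calls among the unchanged genes numbered 23 for the inhibitor and 8 for the virus. The shares therefore do not extend to members with low counts. For the inhibitor in CDH1+ cells, 2631 of 13968 genes were called in the data, more than the simulation changed, so recovery there may differ. The members and the gene lists were chosen with earlier results of these data known, so no list was tested as a set and p-values were adjusted over all genes.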

Additional observations from a re-analysis of the deposited data

Results flagged for a closer look

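Each of the following is a difference between effects of the same kind in different cells, tested directly by edgeR, and given as a difference of log2 fold changes. Between the full inhibitor window at day 4 and the inhibitor at day 2, 8 members differed. Positive values mean a more positive effect at day 4. Among members whose mean log2 CPM reached 1, the difference was 1.49 for Gbp2, 0.84 for Ifih1 and 0.47 for Bst2. It was 0.26 for Ddx58, 0.25 for Lgals3bp and -0.38 for Ifit2. Below that level, it was 1.94 for Rsad2 and 1.45 for Cxcl10.

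Between CDH1+ and CDH1- cells the effect of the inhibitor differed for 5 members. The difference was -0.68 for Bst2, -0.62 for Ifi44, -0.48 for Isg15, -0.41 for Lgals3bp and -0.36 for Xaf1. Negative values mean a more negative effect in CDH1+ cells.

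Between day 2 cells and uninduced MEFs the effect of the Cdh1 virus over the empty virus differed for 7 members. The difference was -3.99 for Cxcl10, -2.48 for Ifit1, -2.18 for Isg15, -1.67 for Oasl2, -1.60 for Ifit3, -1.23 for Usp18 and -0.61 for Parp9. Without the filter on low counts 11 members differed, and in a fit of only the groups compared 17 did.

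Between empty-virus cells and the timecourse the change from MEFs to day 2 differed for 35 members. Among members whose mean log2 CPM reached 1, the most negative differences were -5.21 for Ifi44, -4.95 for Ifit1 and -3.90 for Isg15. Next came -3.89 for Oasl2, -3.46 for Rtp4 and -3.32 for Oas1a, and the positive calls were 1.34 for Isg20 and 0.27 for Ifit2. Below that level, the difference was -4.35 for Mx2 and 1.73 for Cxcl10, among others. By limma on log2(TPM + 1) the value of Ifit2 was -0.0201, with an adjusted p of 0.883. These cells differed in infection, read layout and macrophage marker levels, and the part of each was not tested.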

How the results depend on the processing

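Counts of called members are given here against those of the edgeR test. For the inhibitor at day 2 (12 called), DESeq2 and limma on log2(TPM + 1) each called 6, and leaving out 1 library left 3 to 5. For the early window (2 called), a fit of only the groups compared called 4, and leaving out 1 library left 1 to 2. For the full against the mid window (8 called), DESeq2 called 5, and leaving out 1 library left 3 to 5. For the Cdh1 virus at day 2 (0 called), DESeq2 and a fit of only the groups compared each called 1. For the inhibitor with the empty virus (2 called), the count was 1 without the filter on low counts and 0 to 2 with 1 library left out. For the inhibitor with the Cdh1 virus (1 called), it was 2 by DESeq2 and with RLE size factors, 0 in a fit of only the groups compared and 0 to 6 with 1 library left out. For the difference of inhibitor effects between the full window and day 2 (8 called), leaving out 1 library gave 5 to 8. For that between CDH1+ and CDH1- cells (5 called), no filter gave 8, and leaving out 1 library gave 4 to 6. For the Cdh1 virus at day 2 minus MEFs (7 called), limma and no filter each gave 11, only the groups compared gave 17, and leaving out 1 library gave 5 to 8. For the inhibitor with the empty virus minus the timecourse (0 called), limma and no filter each gave 1, only the groups compared gave 3, and leaving out 1 library gave 0 to 1. The cause of these shifts was not tested, apart from the smaller number of libraries where 1 was left out.

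The other comparisons kept a count of members within 1.5 times under every alternative. Counts over all genes moved further in some. They were 3717 by edgeR and 2243 by DESeq2 for CDH1+ against CDH1- DMSO cells, 3749 and 2154 for the same under the inhibitor, 2631 and 1460 for the inhibitor in CDH1+ cells, and 2607 and 1403 in CDH1- cells. The early window had 815 by edgeR, 518 by limma and 1544 in a fit of only the groups compared. The Cdh1 virus at day 2 had 135, 82 and 208 in the same order, and the inhibitor with the Cdh1 virus 759, 303 and 138. The Cdh1 virus in MEFs had 171, and 87 to 102 without replicate 2 of its own group or either empty-virus library. The difference of inhibitor effects between the sorted fractions had 26 by edgeR, 11 by DESeq2 and 9 by limma, and that between the viruses 0 by edgeR, 17 by DESeq2 and 5 without the filter. The effect of the Cdh1 virus at day 2 minus MEFs had 27 by edgeR, 65 without the filter and 115 in a fit of only the groups compared.

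Replicate numbers showed no consistent pairing of the libraries, which does not exclude batches shared under other numbers. The median correlation of deviations between libraries of the same number was -0.00376 for timecourse, 0.0568 for sorted and -0.0533 for lentivirus and ESC libraries. The ranges were -0.333 to 0.125, -0.176 to 0.132 and -0.224 to 0.311, and 1 of 21, 2 of 6 and 5 of 21 pairs were over 0.1. With the replicate block, 1 member was called for the Cdh1 virus at day 2 and 2 for the inhibitor with the Cdh1 virus, and the other member counts stayed within 1.5 times.

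Of the 470 called values of single members, 62 were no longer called by DESeq2, 3 with the replicate block, 4 with RLE size factors and 12 without the filter. In a fit of only the groups compared it was 7 of 468, by limma 35 of 455, and over all settings that left out 1 library 282 of 2100. The difference between empty virus and timecourse for Ifit2 was reversed by limma on log2(TPM + 1), at -0.0201 with an adjusted p of 0.883. RLE scaling moved the median of all genes by at most 0.069 on the log2 scale. Low members (Ccl5, Mx1, Oasl1) are limited by depth, and with 2 libraries a group small differences can be missed.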
